A study of Mus musculus with 36 samples.

Results

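Neocortices of Chd8 heterozygous (HET, Chd8+/-) mouse embryos were compared with those of wildtype (CTRL, Chd8+/+) embryos at embryonic day 12.5 (E12.5). All 6 libraries with these labels were used, 3 of each genotype. They make up 12 of the 36 sequencing runs of the series, since each library was sequenced in 2 runs whose counts were added. Each library came from the neocortex of a single embryo on the C57BL/6J background, and no agent was given. The null allele lacks exon 3 of Chd8 and was made by crossing a floxed allele to mice with Cre driven from the β-actin promoter, so the gene was mutant in all cells of a HET embryo and not in the neocortex alone. The 2 hypomorphic genotypes of the same stage, neo/neo and neo/- with 3 libraries each, shared the fit and were used to see whether the few genes that changed in HET embryos changed further. A neo allele carries a selection cassette beside exon 3 that lowers expression of Chd8.

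CHD8 is an ATP-dependent chromatin remodeller of the CHD family that binds at the promoters of many active genes. Heterozygous loss of its gene in people is associated with autism and a large head. At E12.5 the mouse neocortex is made mainly of radial glia, the dividing stem cells along the ventricle, with intermediate progenitors and the first neurons above them. Vessels growing in from the surface add endothelial cells, pericytes and blood.

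Total counts lay between 38774591 and 50452472 per library. CTRL 3 and HET 1 had high Xist and almost no Y-linked counts, and the other 4 libraries the reverse, so each genotype held 1 female and 2 male embryos. All 6 libraries held neocortical genes at high levels. The 8 cortex identity genes summed to 1440.1 to 1551 CPM (counts per 1000000 counts after scaling) in CTRL and 1304 to 1605 CPM in HET, lowest in HET 2, while 15 Hox genes of hindbrain and trunk reached at most 0.205 CPM together. Genes of the neighbouring ventral telencephalon were present as well, with 15 genes summing to 1011 to 1069 CPM in CTRL and 912 to 1044 CPM in HET.

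HET 2 stood apart from the other libraries in genes of the neighbouring diencephalon and midbrain. The 16 genes of that list summed to 227, 207 and 228 CPM in CTRL and to 215, 424 and 198 CPM in HET. Tcf7l2, which marks the thalamus, was at 27.5, 24.3 and 30.3 CPM in CTRL and at 24.4, 159 and 27.2 CPM in HET. Irx2 was at 0.41, 0.42 and 0.32 CPM in CTRL and at 0.16, 8.17 and 0.36 CPM in HET. HET 2 alone was high for both genes. The mesenchyme and pericyte list was also highest in HET 2, at 1337 CPM against 700.0 and 898 CPM in the other HET libraries and 823 to 1006 CPM in CTRL. The part of this library in a result is shown by the value without it.

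**Figure D1:**
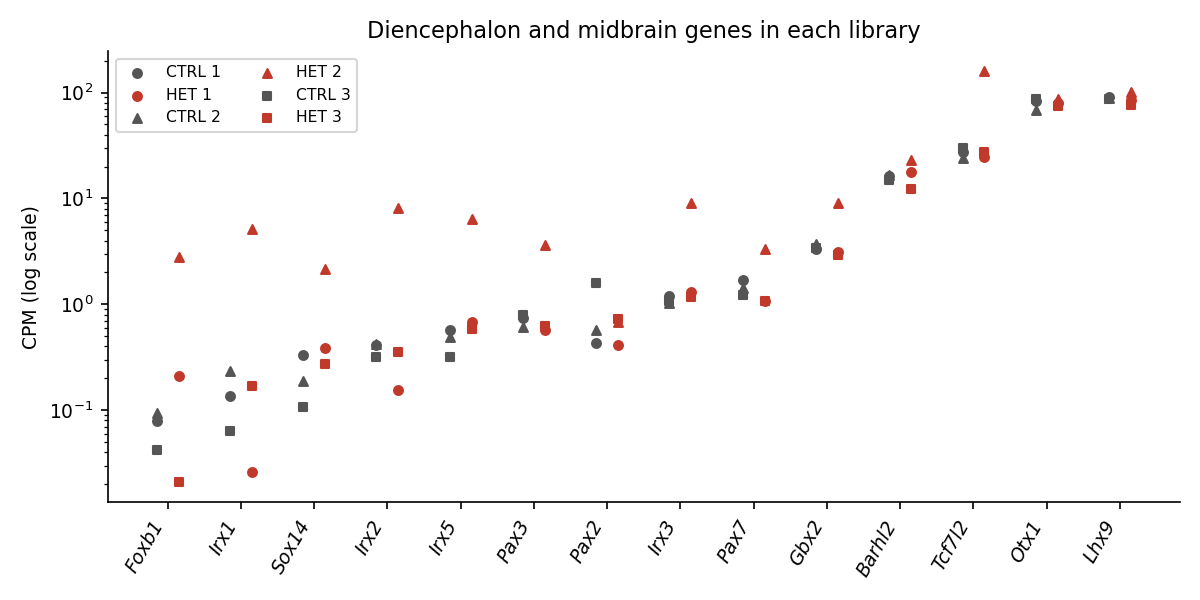
Level in CPM (log axis) of the 14 tested genes of the diencephalon and midbrain list in the 3 CTRL (grey) and 3 HET (red) libraries, with a marker shape for each replicate number. HET 2 (red triangles) lies apart for most of the genes, while the other 5 libraries lie close together.

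Few genes differed between HET and CTRL neocortex. Of 18810 genes that passed the filter on low counts, 4 were called differentially expressed (edgeR adjusted p under 0.05), which is 0.0213% of the genes tested. Chd8 itself was lower, and Tmem209, Zcwpw1 and Krt10 were higher. A further 16 genes passed the same threshold with DESeq2 only, which called 20 of 15150 genes with an adjusted p (0.132%), 14 higher and 6 lower. At an unadjusted p under 0.05, 588 genes were higher (3.13%) and 602 lower (3.2%), and the median size of these 1190 differences was 0.23 (log2). The 3 HET libraries all lay above the 3 CTRL libraries for 1030 genes (5.48%) and all below them for 1109 genes (5.9%).

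The measurement was precise enough to bound most changes. The 95% interval of the fold change lay within 1.5-fold of no change in either direction for 13633 genes, 72.5% of those tested. Among genes with a mean of at least 100 counts over the 6 libraries it did so for 12521 of 13153, or 95.2%. Only 5 genes at that level had an unadjusted p under 0.05, no overlap of the groups and an estimate of 1.5-fold or more. The median log2 fold change over all genes was 0.0012, and the median standard error was 0.094.

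**Figure D2:**
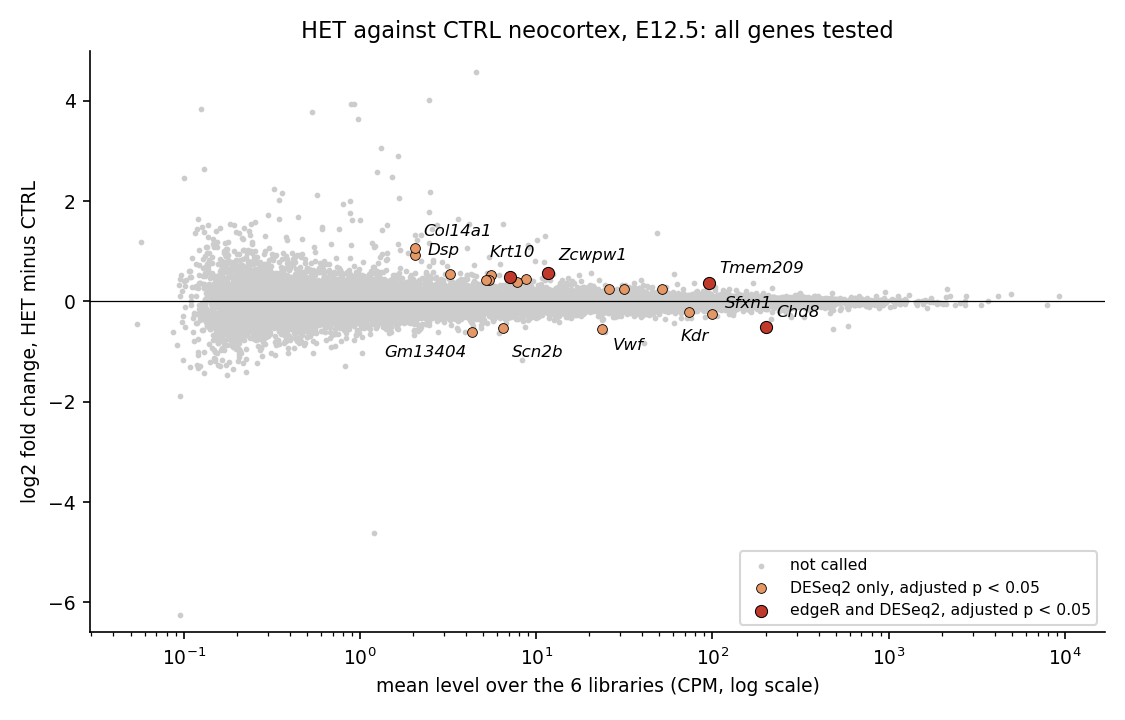
Log2 fold change of HET minus CTRL against the mean level over the 6 libraries (CPM, log axis) for the 18810 genes tested. The 4 genes called by both tools are red and the 16 genes called by DESeq2 only are orange, and nearly all well-expressed genes lie close to 0.

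Chd8 (ENSMUSG00000053754, chr14:52198151-52257723, minus strand, GRCm38) had 12115, 9944 and 11264 counts in CTRL and 6342, 7480 and 7852 counts in HET. After scaling, its level was 237 ± 2.41 CPM (SD, n = 3) in CTRL and 167 ± 3.04 CPM (SD, n = 3) in HET. Every HET library lay below every CTRL library. The HET level was 0.703 of that in CTRL, with a 95% interval from 0.660 to 0.749 (log2 fold change -0.51, SE 0.043, edgeR adjusted p = 0.000138). The deleted exon, exon 3 of transcript Chd8-201, spans chr14:52232545-52232930 in GRCm38 and is 386 bases long, which is not a multiple of 3. It is 2.4% of the 16097 exonic bases on which Chd8 was counted, so RNA of the null allele could still be counted over the rest of the gene, and the counts do not separate the alleles. The call held in all 18 alternative analyses, with log2 fold changes from -0.52 to -0.48.

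Tmem209 (chr6:30479053-30509783) encodes a membrane protein of the nuclear envelope. It was at 82.8, 86.0 and 83.3 CPM in CTRL and at 104, 113 and 106 CPM in HET. All HET values lay above all CTRL values. Its level was 1.28-fold higher (95% interval 1.21 to 1.36, log2 fold change 0.36, SE 0.040, edgeR adjusted p = 0.0026). The call held in 17 of 18 alternative analyses and was lost with only the 6 CTRL and HET libraries in the fit (edgeR adjusted p = 0.106), when the spread was estimated from fewer samples.

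Zcwpw1 (chr5:137787798-137822621) encodes a reader of the histone marks that PRDM9 sets in meiotic germ cells. It was at 9.16, 10.1 and 8.74 CPM in CTRL and at 13.2, 13.3 and 15.2 CPM in HET. The groups did not overlap. It was 1.49-fold higher (95% interval 1.33 to 1.67, log2 fold change 0.58, SE 0.075, edgeR adjusted p = 0.0112), the largest estimate among the 4 called genes. In 5 of 18 alternative analyses it no longer passed, among them those without CTRL 1 (edgeR adjusted p = 0.0893), CTRL 3 (0.102) or HET 3 (0.0911). Its span overlaps that of Pilra on the other strand, and the reads were counted without strand. Overlap of their exons was not looked up, and a part of Pilra reads in this count was not tested.

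Krt10 (chr11:99385254-99389364) encodes a type I keratin of the differentiating epidermis. It was at 5.66, 6.04 and 6.17 CPM in CTRL and at 8.29, 8.21 and 8.41 CPM in HET. The groups were separate and tight, and HET 2 was the lowest of the HET libraries. It was 1.40-fold higher (95% interval 1.26 to 1.55, log2 fold change 0.48, SE 0.070, edgeR adjusted p = 0.0317). Of the 4 calls it depended most on the analysis. It was lost in 12 of 18 alternative analyses, in each of the 6 that left out 1 library (edgeR adjusted p from 0.0981 to 0.266) and in each run alone. The HET 1 value was 9.46 CPM in run 1 and 7.08 CPM in run 2. Krt10 also overlaps an antisense gene, Gm11940.

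The promoters of the 3 genes with higher levels are shown for description, since CHD8 binds at the promoters of many active genes. Binding of CHD8 at these 3 was not looked up, and a part of it in the higher levels was not tested. Each window runs from 250 bases before to 50 bases after a RefSeq start (GRCm38.p6), 5′ to 3′ on the gene's strand. Capitals mark exact matches, on either strand, to TATAAA (bound by TBP in the core promoter), CCGGAA (core of ETS factor motifs), ACTACAA (from the ZNF143 motif), TGCGCA (from the NRF1 motif) and AAGATGG (from the YY1 motif), motifs chosen after the windows had been read. The window shown for Zcwpw1 is chr5:137787552-137787851, that for Tmem209 chr6:30509724-30510023 and that for Krt10 chr11:99389315-99389614.
Zcwpw1: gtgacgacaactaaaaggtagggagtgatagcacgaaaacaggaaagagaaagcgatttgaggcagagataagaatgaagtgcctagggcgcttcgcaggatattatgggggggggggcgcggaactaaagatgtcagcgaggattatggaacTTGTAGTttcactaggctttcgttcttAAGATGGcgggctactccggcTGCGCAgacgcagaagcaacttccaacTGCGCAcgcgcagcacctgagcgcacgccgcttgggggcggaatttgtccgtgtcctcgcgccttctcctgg
Tmem209: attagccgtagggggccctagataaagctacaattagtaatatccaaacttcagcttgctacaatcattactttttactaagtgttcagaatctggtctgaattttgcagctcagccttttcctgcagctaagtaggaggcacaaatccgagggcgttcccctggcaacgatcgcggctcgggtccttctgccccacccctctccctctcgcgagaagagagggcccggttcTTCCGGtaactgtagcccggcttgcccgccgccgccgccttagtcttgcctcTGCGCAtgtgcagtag
Krt10: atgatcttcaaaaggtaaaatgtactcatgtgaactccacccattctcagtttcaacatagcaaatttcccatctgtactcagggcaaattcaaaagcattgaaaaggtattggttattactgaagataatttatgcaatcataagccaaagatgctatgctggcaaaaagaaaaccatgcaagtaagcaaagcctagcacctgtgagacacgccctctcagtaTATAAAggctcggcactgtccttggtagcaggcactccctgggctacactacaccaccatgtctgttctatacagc

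The Zcwpw1 window holds a ZNF143 core on the reverse strand 97 bases before the start, a YY1 core 70 bases before it and NRF1 matches 49 and 22 bases before it. The Tmem209 window holds an ETS core on the reverse strand 18 bases before the start and an NRF1 match downstream of it. The Krt10 window holds only TATAAA, 26 bases before the start. Over all 32851 RefSeq windows of this kind, 13.6% held TATAAA, 14.9% CCGGAA, 3.24% ACTACAA, 7.76% TGCGCA and 6.34% AAGATGG. The G and C content was 55.0% for Zcwpw1, 54.3% for Tmem209 and 42.0% for Krt10, beside a median of 52.7% over all windows. No motif was common to the 3 windows. The first RefSeq window of Zcwpw1 held none of these letters, and the other window of Tmem209, which overlaps the one shown, held the same ones.

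The same 3 genes were compared between HET and the hypomorphs, comparisons that share the HET libraries with the comparison above. Tmem209 was at 120.3, 126 and 119 CPM in neo/neo and 132, 133 and 134 CPM in neo/-. It was above HET by 0.18 (SE 0.040, edgeR adjusted p = 0.027) in neo/neo and by 0.30 (SE 0.040, edgeR adjusted p = 0.0028) in neo/- on the log2 scale. Without HET 1 or HET 3 its difference from neo/neo no longer passed (edgeR adjusted p = 0.11 and 0.0842). Zcwpw1 was at 19.2, 20.5 and 19.8 CPM in neo/neo and 29.05, 26.6 and 27.1 CPM in neo/-. Krt10 was at 9.59, 9.49 and 9.33 CPM in neo/neo and 10.97, 11.4 and 11.4 CPM in neo/-. Each of the 3 genes thus had its lowest values in CTRL and its highest in neo/-, and no library of one genotype overlapped with those of the next. The step from CTRL to HET is the one for which the genes were chosen. The share of all genes with such an order was not counted. Krt10 differed from HET by 0.19 in neo/neo (SE 0.068, edgeR adjusted p = 0.11), which did not pass, and by 0.44 in neo/- (SE 0.068, edgeR adjusted p = 0.0038), which did.

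The order of the Chd8 counts, taken over the whole gene, was different. They were at 213, 203 and 211 CPM in neo/neo, above all HET libraries (difference 0.33, SE 0.043, edgeR adjusted p = 0.00897). In neo/- they were at 158, 147 and 142 CPM, below all HET libraries (difference -0.16, SE 0.043, edgeR adjusted p = 0.042). These counts do not separate intact transcripts from those spliced into the cassette, which the paper reports for the neo allele. The paper reports larger losses in neo/neo than in HET, of Chd8 RNA by RT-PCR at an earlier stage and of protein at E12.5. Over all genes tested, 5.28% passed the threshold between neo/neo and HET and 5.43% between neo/- and HET. Of the 4 genes called in HET, 3 passed in the first comparison and 4 in the second.

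**Figure D3:**
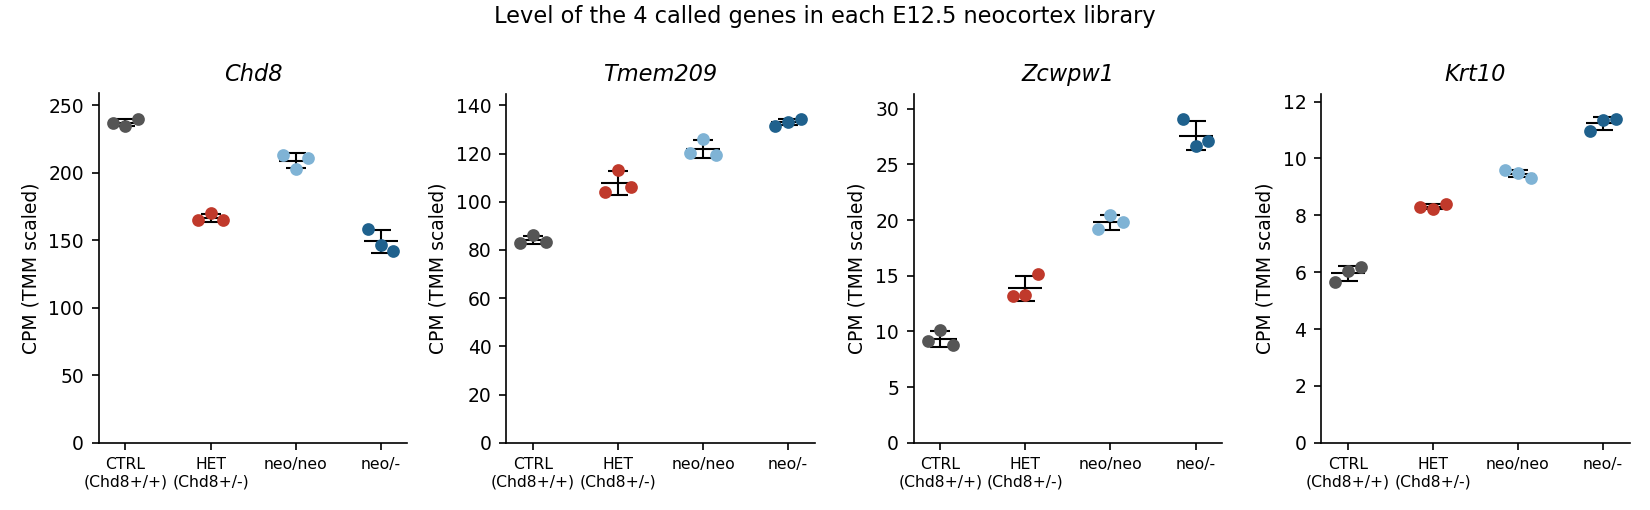
Level in CPM of Chd8, Tmem209, Zcwpw1 and Krt10 in each of the 12 E12.5 libraries. Points are libraries, horizontal bars the mean of a genotype and whiskers the SD (n = 3). Tmem209, Zcwpw1 and Krt10 are ordered from CTRL over HET and neo/neo to neo/-, while Chd8, counted over the whole gene, is lower in HET than in neo/neo.

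The 16 genes that passed with DESeq2 only had edgeR adjusted p-values from 0.101 to 0.556 and are given as values that rest on the choice of tool. Sfxn1, a mitochondrial serine transporter, was the nearest to the edgeR threshold. It was at 105, 108 and 111 CPM in CTRL and 90.9, 89.9 and 91.8 CPM in HET, without overlap (log2 fold change -0.25, SE 0.042, edgeR adjusted p = 0.101, DESeq2 adjusted p = 0.000736). It passed in edgeR too with upper quartile scaling, with no filter on low counts and with the stricter filter.

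Of the 16, 3 take part in DNA repair and are on the list of 72 such genes described below. Over all genes with an adjusted p, DESeq2 called 0.132%. The list was written with earlier results of these data known. Smug1, a uracil DNA glycosylase, was at 28.01, 29.3 and 28.3 CPM in CTRL and 33.4, 34.6 and 34.1 CPM in HET (log2 fold change 0.25, DESeq2 adjusted p = 0.00486). Mlh3, a mismatch repair protein that also acts in meiotic crossing over, was at 24.2, 24.8 and 21.9 CPM in CTRL and 27.6, 28.8 and 28.4 CPM in HET (0.26, DESeq2 adjusted p = 0.0344). Xrcc4, the partner of the ligase that joins DNA ends, was at 6.50, 7.81 and 7.87 CPM in CTRL and 10.1, 9.21 and 10.7 CPM in HET (0.44, DESeq2 adjusted p = 0.0259). The groups did not overlap for any of them. Xrcc4 overlaps Gm4117 and Tmem167 on the other strand.

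Another 3 of the 16 are genes of vessels or excitable membranes that were lower in HET. Kdr, the main receptor for the vascular growth factor VEGF, was at 77.8, 80.7 and 79.1 CPM in CTRL and 68.7, 68.3 and 68.3 CPM in HET (-0.21, DESeq2 adjusted p = 0.0218). Vwf, the von Willebrand factor of endothelium and platelets, was at 31.3, 22.8 and 30.2 CPM in CTRL and 16.8, 21.9 and 18.8 CPM in HET (-0.55, DESeq2 adjusted p = 0.0454). The CTRL 2 and HET 2 values of Vwf lay within 1 CPM of each other. Scn2b, a β subunit of the voltage-gated sodium channel, was at 7.496, 7.98 and 7.63 CPM in CTRL and 4.93, 6.05 and 5.01 CPM in HET (-0.53, DESeq2 adjusted p = 0.0259).

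Dsp and Col14a1 had the largest estimates among the 16 and were the least even. Dsp, the desmosomal plaque protein desmoplakin, was at 1.02, 1.68 and 1.55 CPM in CTRL and 2.11, 3.14 and 2.79 CPM in HET (log2 fold change 0.93, DESeq2 adjusted p = 0.0473). Col14a1, a fibril-associated collagen, was at 1.17, 1.68 and 1.17 CPM in CTRL and 1.77, 3.73 and 2.81 CPM in HET (1.06, DESeq2 adjusted p = 0.0454). Both were highest in HET 2. Without it their unadjusted p-values in edgeR were 0.0022 and 0.0026.

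The other 7 of the 16 were Gm13404, which was lower (-0.62), and 6 genes with higher levels. These were BC025920 (0.52), Rmdn2, a regulator of microtubules (0.54), Mettl15, a methyltransferase of the mitochondrial ribosome (0.44), Prss36, a serine protease (0.44), Nat9 (0.38) and Chmp2a, a subunit of the membrane-cutting ESCRT-III complex (0.24), all log2 fold changes. For all 7 the HET and CTRL libraries did not overlap. Mettl15, Nat9 and BC025920 overlap other genes on the opposite strand.

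Among genes with a mean of at least 100 counts, an unadjusted p under 0.05 and no overlap of the groups, 351 were higher and 343 lower, and the 8 with the largest estimates in each direction were looked up. On the higher side, beside Zcwpw1 and Rmdn2, these were Tnc, Crlf2, mt-Tm, Calcr, Klhdc8a and Sostdc1. Tnc, the extracellular matrix protein tenascin C, was at 6.58, 5.78 and 5.61 CPM in CTRL and 8.60, 25.03 and 8.66 CPM in HET. Its log2 fold change of 1.23 (edgeR adjusted p = 0.697) became 0.53 without HET 2. Crlf2, a cytokine receptor subunit, was at 1.88, 1.86 and 1.83 CPM in CTRL and 3.13, 2.32 and 3.69 CPM in HET (0.71, edgeR adjusted p = 0.427). The other 4, which include the calcitonin receptor Calcr and the secreted antagonist Sostdc1, had log2 fold changes from 0.53 to 0.60 and did not pass with either tool. Without HET 2, the unadjusted p-values of Klhdc8a and Sostdc1 were 0.14 and 0.109.

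On the lower side, beside Gm13404, Vwf and Scn2b, the 8 were Itga2b, Sfmbt2, Gm38124, Gm11611 and H2-Q7. Itga2b, the integrin subunit of platelets and megakaryocytes, was at 8.06, 7.69 and 6.68 CPM in CTRL and 3.99, 6.05 and 4.40 CPM in HET (-0.63, edgeR adjusted p = 0.435, DESeq2 adjusted p = 0.0646). Sfmbt2, an imprinted Polycomb group gene, was at 4.23, 4.2002 and 4.53 CPM in CTRL and 3.15, 3.12 and 2.50 CPM in HET (-0.57, edgeR adjusted p = 0.33, DESeq2 adjusted p = 0.0795). The remaining 3 had values from -0.55 to -0.53 and an edgeR adjusted p of 0.649. H2-Q7 is one of several near-identical class I histocompatibility genes, so its counts are uncertain.

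Endothelial genes, of the cells that line the vessels of the tissue, were mostly lower in HET. Of the 20 listed genes, all of them tested, 18 had lower estimates in HET. At an unadjusted p under 0.05, 11 were lower and 0 higher, beside 3.2% and 3.13% of all genes. The HET libraries all lay below the CTRL libraries for 12 of the 20, beside 5.9% of all genes. The median log2 fold change was -0.16, beside 0.0012 over all genes. None of the 20 was called by edgeR. Kdr and Vwf were called by DESeq2, which called 0.132% of the genes with an adjusted p. The list was written with earlier results of these data known, so its counts are descriptions and not an independent test.

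The summed level of the 20 genes was 605, 589 and 597 CPM in CTRL and 521, 532 and 544 CPM in HET, without overlap. In the hypomorphs it was 546, 609 and 561 CPM in neo/neo and 592, 651 and 617 CPM in neo/-. The libraries of both hypomorphs were thus all above the HET libraries, though the lowest neo/neo library (546 CPM) was close to the highest HET library (544 CPM). Comparisons with HET share the libraries in which the list was low, so they are not separate support. Against CTRL, the median log2 fold change of the 20 genes was -0.039 in neo/neo and 0.076 in neo/-. Of the 20 genes, 1 passed the edgeR threshold between neo/neo and HET (5.28% of all genes) and 8 passed between neo/- and HET (5.43% of all genes), with Kdr at 0.23 (edgeR adjusted p = 0.009). In RNA of whole tissue, fewer cells of a type and less RNA per cell cannot be told apart.

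The members with lower levels had different roles. Among growth factor receptors, Tie1 was at 32.2, 31.8 and 31.1 CPM in CTRL and 27.6, 28.6 and 29.3 CPM in HET (log2 fold change -0.15, unadjusted p = 0.0114). Cdh5, the cadherin that joins endothelial cells, was at 62.0, 61.6 and 61.5 CPM in CTRL and 52.1, 55.9 and 57.7 CPM in HET (-0.16, unadjusted p = 0.0237). Sox17, a transcription factor of arterial endothelium, was at 5.21, 5.62 and 4.40 CPM in CTRL and 3.91, 4.10 and 4.005 CPM in HET (-0.34, unadjusted p = 0.0106). For none of these did the groups overlap.

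Plvap, a diaphragm protein of fenestrated and immature vessels, was at 17.4, 17.2 and 19.6 CPM in CTRL and 15.5, 15.4 and 14.2 CPM in HET (-0.27, unadjusted p = 0.00623). Robo4, a guidance receptor of vessels, was at 14.2, 14.8 and 12.7 CPM in CTRL and 10.9, 12.3 and 11.8 CPM in HET (-0.25, unadjusted p = 0.00551). Slc2a1, the glucose transporter of the blood-brain barrier that neural cells express as well, was at 136, 136 and 138 CPM in CTRL and 124, 116 and 126 CPM in HET (-0.16, unadjusted p = 0.0199). Egfl7, Eng and Nos3 were lower at this level as well, with values from -0.23 to -0.22.

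Not all endothelial genes followed. Cldn5 and Pecam1, which define the cell type, had log2 fold changes of -0.043 and -0.024, with overlapping groups. Mfsd2a, a lipid transporter of the barrier, was at 0.043, and Erg was at 0.14 with its highest value, 9.78 CPM, in HET 2. Without HET 2, 9 of the 20 were lower at an unadjusted p under 0.05 and the median was -0.17. Over all 18 alternative analyses the number ranged from 7, without CTRL 3, to 13, and the median from -0.19 to -0.14.

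**Figure D4:**
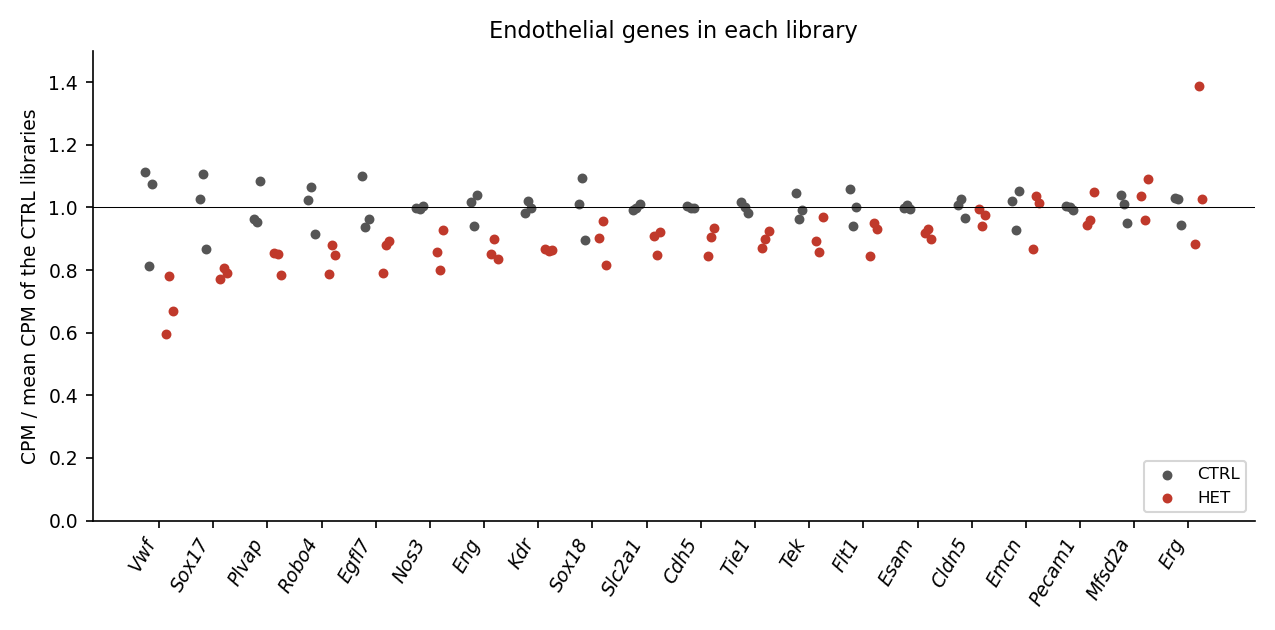
Level of each of the 20 endothelial genes in the 3 CTRL (grey) and 3 HET (red) libraries, divided by the mean of the CTRL libraries of that gene and ordered by log2 fold change. For 12 genes all HET points lie below all CTRL points, and Erg and Mfsd2a on the right are the only genes with a higher mean in HET.

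Other cell types of vessels and blood had few or no members with a low p-value. Of 16 pericyte and mesenchyme genes, 1 (Col14a1) was higher and 0 lower at an unadjusted p under 0.05, beside 3.13% and 3.2% of all genes. Their median was 0.068, or -0.11 without HET 2. None of 12 erythroid and none of 12 microglia and macrophage genes had such a p-value. Of the erythroid genes 10 had higher estimates (median 0.23, or 0.047 without HET 2), and of the microglia and macrophage genes 10 had lower ones (median -0.10, or -0.12 without HET 2). Leaving out 1 library gave at most 1 member of either list with such a p-value. The erythroid genes summed to 3326 to 4060.4 CPM in CTRL and 3348 to 4719 CPM in HET. The microglia and macrophage genes summed to 58.2 to 63.9 CPM in CTRL and 55.3 to 60.9 CPM in HET.

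The keratin, desmosome and epidermal genes leaned the other way, at low levels. Of 31 genes, 18 passed the filter on low counts, 5 of these were higher at an unadjusted p under 0.05 and 0 lower, beside 3.13% and 3.2% of all genes, and the median was 0.46. The HET libraries all lay above the CTRL libraries for 4 of the 18, beside 5.48% of all genes. The 5 were Krt10, Dsp, Lor, Cldn6 and Cdh1. This list, too, was written with earlier results of these data known. Lor, the cornified envelope protein loricrin, was at 0.59, 0.45 and 0.45 CPM in CTRL and 0.83, 0.91 and 0.78 CPM in HET. Cdh1, the epithelial cadherin, was at 0.65, 0.85 and 0.85 CPM in CTRL and 0.60, 2.68 and 1.70 CPM in HET. The defining genes of the basal epidermis were at or near 0 in most libraries. Krt14 was at 0 in 5 libraries and at 0.20 CPM in HET 2, and Krt5 was at no more than 0.04 CPM in 5 libraries and at 1.68 CPM in HET 2. The whole list summed to 64.5 to 69.4 CPM in CTRL and to 67.1, 82.5 and 77.2 CPM in HET. Without HET 2, 6 members were higher and the median was 0.36; without HET 1, 11 were higher, and without CTRL 1, 3. With the filter at a mean of 100 counts, 1 member was higher, Krt10, and the median was -0.031. The part of these low-level epithelial genes in the Krt10 result was not tested.

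Zcwpw1 was the only called member of the germline and meiosis list. Of 40 listed genes, 22 were tested and 15 of these had higher estimates, with a median of 0.070. At an unadjusted p under 0.05, 3 were higher and 1 lower, beside 3.13% and 3.2% of all genes. Without CTRL 3, 1 was higher, and without HET 2 or HET 3, 0 were lower. Dazl and Piwil2, RNA-binding proteins of germ cells, were the other two higher genes, at most 0.336 CPM in any library. Rec8, the cohesin subunit of meiosis, was at 9.26, 9.84 and 8.91 CPM in CTRL and 7.97, 7.49 and 7.30 CPM in HET (-0.30, edgeR adjusted p = 0.733). Prdm9 itself was at 6.87, 4.37 and 5.85 CPM in CTRL and 5.004, 5.64 and 4.68 CPM in HET, with overlap.

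DNA repair genes, the list with 3 of the DESeq2 calls (0.132% of all genes with an adjusted p), had a median near 0. Of 72 genes, 6 were higher at an unadjusted p under 0.05 and 2 lower, beside 3.13% and 3.2% of all genes, and the median was 0.010. Besides Smug1, Mlh3 and Xrcc4, the higher genes were Xrcc5 (0.15), the Ku subunit that binds broken ends, Pms2 (0.11) and Fanci (0.12). The lower genes were Xrcc1 (-0.13) and Palb2 (-0.16). For 71 of the 72 genes the 95% interval lay within 1.5-fold. Without HET 2 the counts were 4 higher and 1 lower. The number lower ranged from 0, without CTRL 1, to 5, without CTRL 2.

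The list of 42 genes around REST, a repressor of neuronal genes outside neurons, held REST itself, its corepressor Rcor1 and target genes. Of these, 4 were lower and 2 higher at an unadjusted p under 0.05, beside 3.2% and 3.13% of all genes. The number lower was 8 without HET 1 and 2 without HET 3. The lower genes were Scn2b, Mapk8ip2 (-0.15), Celsr3 (-0.18) and Scn8a (-0.21), and the higher ones included Vgf (0.78, at most 1.51 CPM). Mapk8ip2, a scaffold of the JNK pathway, was at 123.5, 125 and 127 CPM in CTRL and 116, 113 and 109.6 CPM in HET (unadjusted p = 0.00127), without overlap. The median of the list was -0.0065.

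Of the 9 members of the CHD family, Chd8 and Chd3 were lower at an unadjusted p under 0.05, beside 3.2% of all genes. Chd8 is the mutated gene, so its fall is not a result about the family, and Chd3 alone remains. Chd3, an ATPase of the NuRD complex, was at 567, 552 and 557 CPM in CTRL and 517, 483 and 493 CPM in HET (-0.17, edgeR adjusted p = 0.649). Chd7, the nearest relative with a known role in neural progenitors, was at 0.061 and overlapped. Among 17 factors associated with CHD8, Trp53 alone had an unadjusted p under 0.05 (-0.12), with overlapping groups and a p of 0.14 without HET 2.

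**Figure D5:**
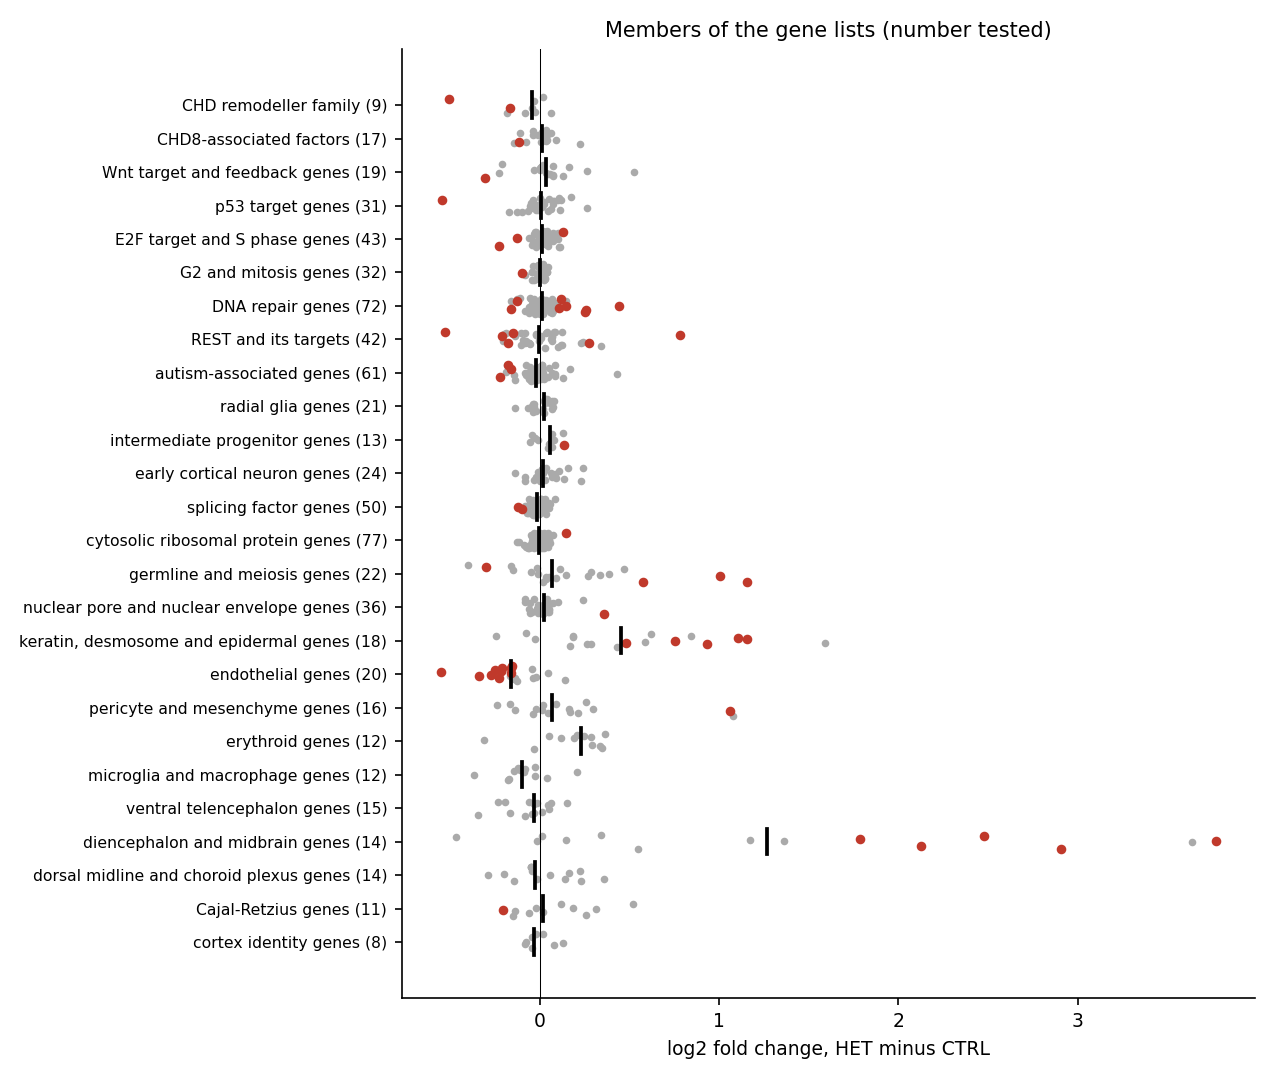
Log2 fold change of HET minus CTRL for the tested members of each gene list. Red points have an unadjusted p under 0.05, black bars are medians and the number tested is given beside each list. Most medians lie near 0, that of the endothelial list is at -0.16, and those of the keratin and the diencephalon lists are at 0.46 and 1.27.

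Genes that report on growth and division were close to their CTRL levels. Of 43 E2F target and S phase genes, 1 was higher (Gins4, 0.13) and 2 lower at an unadjusted p under 0.05, beside 3.13% and 3.2% of all genes. Tk1, the thymidine kinase of S phase, was at 63.4, 68.4 and 66.5 CPM in CTRL and 58.9, 49.6 and 61.0 CPM in HET (-0.23, edgeR adjusted p = 0.565). Of 32 G2 and mitosis genes, Birc5 alone had such a p-value (-0.098, lower), beside 3.2% of all genes. No member had one when any library but HET 3 was left out. For all members of both lists the 95% interval lay within 1.5-fold. That bound also holds the interval of the called gene Tmem209 (1.21 to 1.36), so it does not exclude smaller changes. Among 31 tested p53 target genes 1 was lower, Trp53cor1 (-0.55, at most 0.60 CPM), beside 3.2% of all genes. These small counts moved when 1 library was left out. Without CTRL 3, 4 E2F target and S phase genes were higher, and without CTRL 2 or CTRL 3, 2 p53 target genes were. Cdkn1a and Mdm2, classical targets of p53, were at -0.041 and 0.022.

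Of 19 Wnt target and feedback genes, Tcf7 alone had an unadjusted p under 0.05, beside 3.13% higher and 3.2% lower of all genes. Tcf7 was lower (-0.31, edgeR adjusted p = 0.612), at 11.1, 9.53 and 11.9 CPM in CTRL and 8.63, 8.83 and 8.93 CPM in HET. Axin2, a direct feedback target of Wnt signalling, was at 0.0078. Of 61 autism-associated genes, 3 were lower at an unadjusted p under 0.05 (among them Nlgn3 with -0.18 and Katnal2 with -0.16), and HET and CTRL libraries overlapped for both of these. That is 0 higher and 3 lower of 61, beside 3.13% and 3.2% of all genes, and 57 of the 61 intervals lay within 1.5-fold. The number lower fell to 0 without HET 3 and to 1 without CTRL 1, CTRL 3 or HET 2. Splicing factor genes (2 lower of 50, U2af2 with -0.10 and Srsf6 with -0.12), cytosolic ribosomal protein genes (1 higher of 77, Rpl35a with 0.15) and nuclear pore and envelope genes (1 higher of 36, Tmem209) had no called member other than Tmem209. These counts are at an unadjusted p under 0.05, where 3.13% of all genes were higher and 3.2% lower. Without CTRL 2, 5 ribosomal protein genes were higher, and without CTRL 1, 5 were lower. Of the splicing factor genes 0 were lower without CTRL 3 or HET 2, and 3 nuclear pore and envelope genes were higher without CTRL 2. The 95% intervals in the analysis of all libraries lay within 1.5-fold for all 50, all 77 and 35 of the 36 genes.

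Lists of neural cell types had few members with a low p-value. None of 21 radial glia genes and none of 24 early cortical neuron genes had an unadjusted p under 0.05. Of all genes, 3.13% were higher and 3.2% lower at that threshold. The interval of the fold change lay within 1.5-fold for 20 of the 21 and for 20 of the 24 genes. That bound does not exclude smaller changes, and equal levels of the cell types were not tested. Pax6, a transcription factor of radial glia, was at 162, 148 and 155 CPM in CTRL and 166, 166 and 159 CPM in HET (0.077). Neurod6, of young excitatory neurons, varied widely, at 69.4, 106 and 79.8 CPM in CTRL and 128, 48.4 and 122.97 CPM in HET, lowest in HET 2. Of 13 intermediate progenitor genes, Insm1, which drives progenitors away from the ventricle, was at 70.9, 67.6 and 73.3 CPM in CTRL and 77.3, 79.0 and 76.3 CPM in HET (0.14, edgeR adjusted p = 0.649). Neurog2 and Btg2 of that list also lay higher in all HET libraries (0.13 and 0.080), with unadjusted p-values of 0.054 and 0.0947. That makes 3 of 13 genes without overlap on the higher side, beside 5.48% of all genes. Eomes, the defining gene of these cells, overlapped (-0.046). The 13 genes summed to 871 to 891 CPM in CTRL and 872 to 924 CPM in HET.

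Regional lists had few members with a low p-value, other than the diencephalon and midbrain list. None of 15 ventral telencephalon, 14 dorsal midline and choroid plexus and 8 cortex identity genes had an unadjusted p under 0.05, and of 11 Cajal-Retzius genes Cacna2d2 alone did (-0.20). Without HET 2, 2 of the 14 dorsal midline and choroid plexus genes were lower and their median went from -0.029 to -0.13. The 14 tested diencephalon and midbrain genes had 5 members higher at that threshold (Irx2, Irx3, Irx5, Sox14 and Foxb1), beside 3.13% of all genes, and a median of 1.27. Without HET 2 these became 0 higher members and a median of -0.12. The number of higher members was also 0 without any 1 of the CTRL libraries and was 8 and 9 without HET 1 and HET 3.

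The neighbourhood of the mutated gene was near its CTRL level. Of 17 tested genes other than Chd8 that start within 500 kb of the Chd8 start on chromosome 14, none was called, and log2 fold changes ran from -0.27 to 0.33 with a median of 0.019. Mettl3, an RNA methyltransferase whose start lies 47.4 kb from that of Chd8, alone had an unadjusted p under 0.05 (-0.13, edgeR adjusted p = 0.77). Supt16, a subunit of the histone chaperone FACT, was at 284.4 ± 10.8 CPM (SD, n = 3) in CTRL and 280.8 ± 9.26 CPM (SD, n = 3) in HET.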

How the data were processed

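RNA of E12.5 neocortices was sequenced as paired reads from a dUTP library. Per the labels and the study's methods, the authors trimmed adaptors with Trim Galore 0.4.1, aligned to GRCm38.p4 with TopHat2 2.1.0 and counted reads per gene with featureCounts; the file header gives version 1.5.0-p1, Ensembl 82 and no strand option. The deposited values are raw counts per gene and run, not normalized. Both runs of a library were added. The Length column of exonic bases, also deposited by the authors, served descriptions only. The table of the other stage was not used here.

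Of 46603 genes, 46005 matched a symbol. The 12 libraries of 4 genotypes were fitted together in edgeR 4.0.16 (R 4.3.3; filterByExpr defaults, TMM, robust quasi-likelihood test, genotype as the only term), p-values were adjusted by Benjamini-Hochberg over 18810 genes, with 0.05 as the threshold for a call. The biological coefficient of variation was 0.0866. CPM are TMM-scaled counts per 1000000. The alternatives used DESeq2 1.42.0 (plain, with a prior and on 6 libraries), 6 libraries in edgeR, RLE and upper quartile scaling, no filter, a filter at a mean of 100 counts, the replicate block, embryo sex, each run alone and each library left out. DESeq2 gave no adjusted p for 3660 genes. Libraries of a genotype differed by more than sampling noise, so each was counted as its own replicate.

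Named were Chd8, every gene called by edgeR or DESeq2, the 8 largest rises and falls at an unadjusted p under 0.05, at least 100 counts and no overlap, the member of each list with the smallest such p in each direction, and genes within 500 kb of Chd8. Other list members are examples chosen after their values were seen. The members and lists were chosen with earlier results of these data known. Embryos of a genotype are described as separate animals. The labels' replicate numbers were checked for pairing. Python 3.11.15 with pandas 2.3.3 made the tables and matplotlib 3.10.9 the plots. Some list members are counted but not reported by name here.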

Additional observations from a re-analysis of the deposited data

How the results depend on the processing

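The number of genes called in HET against CTRL was 4. It was 20 with DESeq2, 16 with DESeq2 and a prior on the fold changes, 1 with only the 6 CTRL and HET libraries in edgeR and 2 with the replicate number as a block, and from 2 to 6 when 1 library was left out, with 2 without CTRL 3 or HET 3. Under the other alternatives it was 3 to 5. The 2 calls under the replicate block were Chd8 and Tmem209, and Zcwpw1 (edgeR adjusted p = 0.068) and Krt10 (0.122) were lost. Deviations of same-numbered CTRL and HET libraries from their group means had correlations of -0.183, -0.062 and -0.065, and no HET library correlated best with its own number, so the numbers are not taken to pair the embryos. Of the 4 called genes, 3 passed in both comparisons of HET with the hypomorphs, 1 without HET 1 or HET 3 (range 1 to 3 when 1 library was left out), and 4 passed against neo/-, or 2 in run 1 alone, where Chd8 and Krt10 did not pass.

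Over the 47 named genes and 18 alternatives, 840 log2 fold changes were computed and 0 changed direction. Most of these genes were named for their difference in these same libraries, so a kept direction is not separate support. In 18 a call of edgeR was lost (12 of them for Krt10) and in 34 one was gained, mostly with DESeq2. The number of genes with unadjusted p under 0.05 ranged from 599, in DESeq2 with 6 libraries, to 1489, without CTRL 2, beside 1190. The cause was not tested. With 3 embryos a group, the p-values of the main analysis weigh a difference between groups against the spread between embryos. That spread was estimated from all 12 libraries in the fit, not from the CTRL and HET embryos alone. The 95% interval printed with a value shows the sizes that this depth and number of embryos leave possible.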

Other observations

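Genes with an unadjusted p under 0.05 were close to all tested genes in length and level, and a smaller share of them lay on the X chromosome. Their median counted exon length was 3304 bases for the 588 higher and 3625 bases for the 602 lower genes, beside 3398 bases over all genes tested. Their median CTRL level was 13.2 CPM for the higher and 14.9 CPM for the lower genes, beside 14.2 CPM. The X chromosome carried 2.72% of the higher and 2.49% of the lower genes, beside 3.48% of all genes tested.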
